A study of Mus musculus with 18 samples.

Results

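The Hox genes of the A, B, C and D clusters were followed in thymic epithelial cells (TEC), the stromal cells that support and select developing T cells, from mice lacking the histone acetyltransferase Kat7 and from wildtype mice. They were taken by symbol as every gene written Hox, then a, b, c or d, then a number, with no use of its expression. This gave 39 of the 27179 genes counted, of which 11 lie in cluster A, 10 in B, 9 in C and 9 in D. RNA was sequenced from cells sorted into 3 subsets: medullary TEC with high surface MHC class II (mTEChi), medullary TEC with low MHC class II (mTEClo) and cortical TEC (cTEC). The groups were Kat7 knockout (KO) mTEChi, mTEClo and cTEC from pools of mice numbered 4 to 6, and wildtype (WT) mTEChi, mTEClo and cTEC from pools 1 to 3, so each of the 6 groups had 3 libraries and each pool gave 1 library of each subset. The mice of both genotypes were of the C57BL/6 strain, and no other allele or treatment was named. The deleted part of Kat7, the cells in which it was deleted, the age of the mice and the number of mice in a pool are not given in the sources used here.

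Hox genes encode homeodomain transcription factors that give cells their position along the body axis. Within a cluster the genes lie in the order in which they are used, with low-numbered (anterior) genes active in the hindbrain and pharynx and high-numbered (posterior) genes in the lumbar, tail and limb regions, and genes with the same number in different clusters are paralogs. The thymus arises from the third pharyngeal pouch, where Hoxa3 is needed for the organ to form in mice. Polycomb complexes hold silent Hox genes in a repressed state, and mature medullary TEC are known for transcribing many genes of other organs at low levels. In what follows, paralog groups 1 to 3 are called anterior, 4 to 8 central and 9 to 13 posterior.

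On the mouse assembly GRCm38.p6 (mm10), cluster A spans chromosome 6 from 52155367 to 52260880, cluster B chromosome 11 from 96194316 to 96368254, cluster C chromosome 15 from 102921131 to 103036856 and cluster D chromosome 2 from 74668225 to 74765142. Cluster B lies 884.1 to 1055.5 kb from Kat7 on the same chromosome. RefSeq upstream windows were at hand for 22 of the 39 Hox genes, and 4 are shown as the 250 bases before the annotated start, 5′ to 3′ on the gene's strand. They belong to a pair of cluster A genes that rose in KO cTEC, Hoxa2 (minus strand, chr6:52164832-52165081) and Hoxa3 (minus strand, chr6:52213068-52213317), and to a pair of cluster D genes that were read mostly in mTEChi, Hoxd3 (plus strand, chr2:74711743-74711992) and Hoxd1 (plus strand, chr2:74762730-74762979). Capitals mark TAAT, the core that homeodomains bind, and TGATNNAT, a core of joint PBX and HOX binding, each on either strand.
Hoxa2: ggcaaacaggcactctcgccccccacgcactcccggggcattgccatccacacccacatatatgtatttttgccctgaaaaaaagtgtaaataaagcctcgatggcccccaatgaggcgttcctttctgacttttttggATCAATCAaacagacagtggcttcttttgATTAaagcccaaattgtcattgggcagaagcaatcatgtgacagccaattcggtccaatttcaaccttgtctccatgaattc
Hoxa3: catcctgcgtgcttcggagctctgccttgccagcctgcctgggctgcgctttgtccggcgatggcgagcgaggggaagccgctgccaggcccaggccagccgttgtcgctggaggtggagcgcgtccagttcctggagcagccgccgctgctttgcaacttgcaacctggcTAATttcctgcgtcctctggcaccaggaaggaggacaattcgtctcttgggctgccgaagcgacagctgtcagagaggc
Hoxd3: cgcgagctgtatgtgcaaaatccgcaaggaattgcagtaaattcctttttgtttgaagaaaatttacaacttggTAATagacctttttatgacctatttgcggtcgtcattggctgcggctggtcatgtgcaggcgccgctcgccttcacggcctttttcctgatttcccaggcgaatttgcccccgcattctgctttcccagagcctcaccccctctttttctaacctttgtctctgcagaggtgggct
Hoxd1: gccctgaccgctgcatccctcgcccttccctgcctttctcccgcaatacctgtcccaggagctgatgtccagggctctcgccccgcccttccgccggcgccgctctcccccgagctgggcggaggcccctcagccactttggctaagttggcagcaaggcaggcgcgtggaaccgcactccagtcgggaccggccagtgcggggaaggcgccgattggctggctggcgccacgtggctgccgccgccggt
The Hoxa2 window held 1 TAAT and 1 TGATNNAT, the Hoxa3 and Hoxd3 windows held 1 TAAT each, and the Hoxd1 window held neither. CpG dinucleotides numbered 6, 18, 12 and 24 in the windows of Hoxa2, Hoxa3, Hoxd3 and Hoxd1. Over windows of the same length, TAAT on either strand was found in 75.0% of the 24 Hox windows and in 54.9% of all 32851, and TGATNNAT in 16.7% and 7.68%. The median window held 12.5 CpG among the Hox genes and 6 among all genes.

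Library totals were 6802970 to 13373646 counts in KO mTEChi, 14411708 to 19356071 in KO mTEClo, 15822957 to 20054360 in KO cTEC, 3554089 to 8445355 in WT mTEChi, 6565309 to 9815559 in WT mTEClo and 13300969 to 18338441 in WT cTEC. Levels are given in CPM, counts scaled to a common library total after TMM scaling. Kat7 itself stood at 0.765 to 4.16 CPM in the 9 KO libraries and at 38.6 to 83.4 CPM in the 9 WT libraries. Hox genes took few reads: the 39 together had 151 to 425 counts per library in KO mTEChi, 361 to 576 in KO mTEClo, 1010 to 1452 in KO cTEC, 239 to 507 in WT mTEChi, 379 to 536 in WT mTEClo and 766 to 1206 in WT cTEC. The filter on low counts kept 24 Hox genes for testing, 8 of cluster A, 6 of B, 6 of C and 4 of D. Of these, Hoxa10, Hoxc11 and Hoxd1 passed through WT mTEChi alone and Hoxa13 through KO mTEClo alone, so for them the filter favoured a difference that involves that group. Hoxb6, Hoxb9, Hoxb13 and Hoxd3 passed through the 2 mTEChi groups alone, which favoured a higher level in mTEChi than in the other subsets. The other 15 (Hoxa6, Hoxa9, Hoxa11, Hoxb1, Hoxb4, Hoxb5, Hoxb8, Hoxc5, Hoxc12, Hoxc13, Hoxd9, Hoxd10, Hoxd11, Hoxd12 and Hoxd13) were not tested and had at most 15 counts in any library. Hoxd12 had no read in any library.

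The 6 groups held different parts of the Hox repertoire. In cTEC and mTEClo of both genotypes the most abundant transcripts came from anterior genes. These lay in cluster A in KO and in clusters A and B in WT. In mTEChi, by contrast, reads were spread over all clusters and reached the posterior end. Per kilobase of gene length, which allows levels of different genes to be compared, Hoxa2 led in KO mTEClo (5.57 ± 0.76 CPM per kb), KO cTEC (15.5 ± 2.02), WT mTEClo (11.1 ± 3.09) and WT cTEC (8.83 ± 1.68, SD, n = 3 each). In the mTEChi groups Hoxb13, a gene of prostate and tail development, led at 2.06 ± 0.34 CPM per kb in KO and 7.14 ± 1.37 in WT (SD, n = 3 each). The next genes by level per kilobase were Hoxc6 and Hoxb9 in KO mTEChi, Hoxa3 and Hoxa4 in KO mTEClo and KO cTEC, Hoxc6 and Hoxc11 in WT mTEChi, and Hoxb2 and Hoxa3 in WT mTEClo and WT cTEC.

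**Figure D1:**
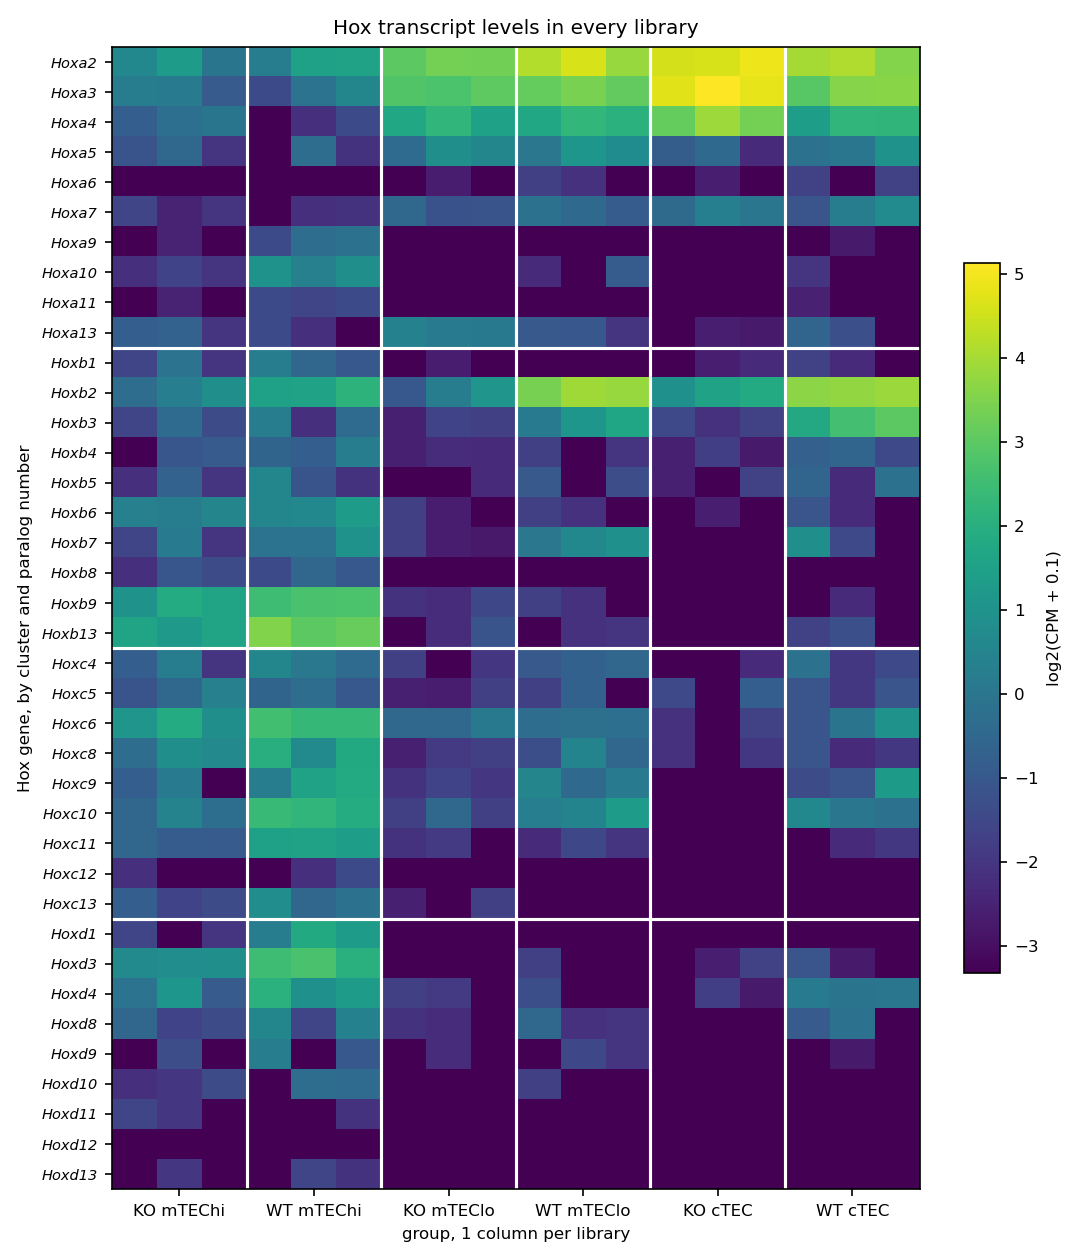
Level of the Hox genes (rows, by cluster and position) in each of the 18 libraries (columns, by group), as log2 of CPM plus 0.1 on the colour scale. Hoxa2, Hoxa3 and Hoxa4 are brightest in cTEC and mTEClo, most posterior genes are brightest in WT mTEChi, and KO cTEC is darker outside Hoxa2 to Hoxa4 and Hoxb2.

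Summed over a cluster, the level of A was 71.0 ± 6.99 CPM in KO cTEC and 34.2 ± 3.56 CPM in WT cTEC. The other clusters stood lower in KO cTEC, at 3.18 ± 0.941 CPM for B, 0.492 ± 0.474 for C and 0.174 ± 0.151 for D, against 21.3 ± 1.93, 4.10 ± 1.73 and 1.49 ± 0.509 CPM in WT cTEC (SD, n = 3 each). In mTEClo cluster A summed to 23.6 ± 1.88 CPM in KO and 36.1 ± 7.48 CPM in WT, and cluster B to 2.00 ± 1.03 CPM in KO and 17.3 ± 3.34 CPM in WT (SD, n = 3 each). Clusters B, C and D in mTEChi summed to 9.995 ± 2.04, 7.28 ± 2.31 and 3.75 ± 0.892 CPM in KO, against 24.9 ± 2.99, 20.6 ± 1.68 and 12.5 ± 0.916 CPM in WT (SD, n = 3 each). The 39 genes together reached 25.3 ± 6.05 CPM in KO mTEChi, 27.6 ± 2.81 in KO mTEClo and 74.8 ± 7.53 in KO cTEC, and 64.2 ± 3.47, 59.1 ± 9.27 and 61.0 ± 4.61 CPM in WT mTEChi, mTEClo and cTEC (SD, n = 3 each).

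**Figure D2:**
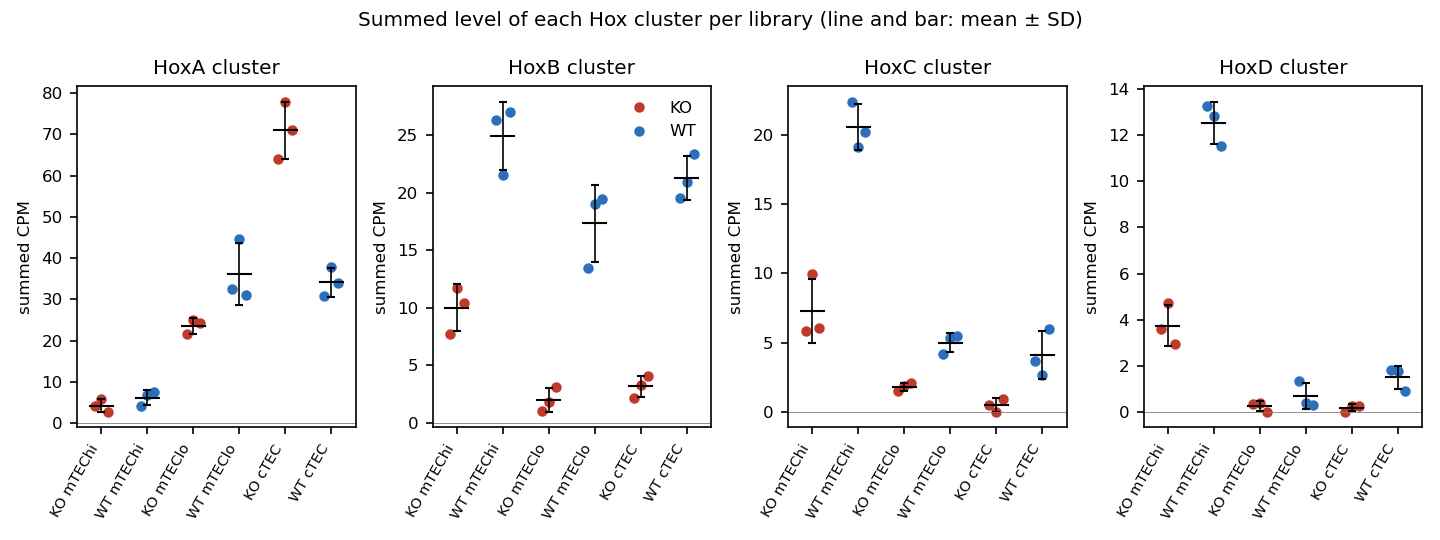
Summed level of the Hox genes of each cluster (CPM, linear axes from 0) in the 6 groups, with a line for the mean, error bars for the SD and points for the 3 libraries of a group. Cluster A is higher in KO than in WT cTEC (71.0 against 34.2 CPM), while the means of B, C and D are lower in KO than in WT in every subset. For D in mTEClo the libraries overlap (0 to 0.394 CPM in KO, 0.297 to 1.33 CPM in WT).

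The share of all Hox counts that came from cluster A was 16.8 ± 3.68% in KO mTEChi, 85.5 ± 2.95% in KO mTEClo and 94.9 ± 1.55% in KO cTEC, and 9.66 ± 2.93%, 60.9 ± 5.00% and 55.9 ± 3.62% in WT mTEChi, mTEClo and cTEC (SD, n = 3 each). By position, posterior genes summed to 8.83 ± 1.37 CPM in KO mTEChi and 30.2 ± 1.57 CPM in WT mTEChi, and to 0.0391 ± 0.0344 CPM in KO cTEC and 2.76 ± 0.536 CPM in WT cTEC (SD, n = 3 each). The number of Hox genes with at least 5 reads, after every library was thinned to the smallest total of 3554089 counts, was 6.33 ± 1.40 in KO mTEChi, 4.37 ± 0.61 in KO mTEClo and 5.10 ± 0.10 in KO cTEC, and 14.9 ± 1.90, 7.77 ± 1.63 and 8.20 ± 1.35 in WT mTEChi, mTEClo and cTEC (SD, n = 3 each). At full depth 2 of the 39 genes had no read in KO mTEChi, 11 in KO mTEClo and 19 in KO cTEC, against 3, 10 and 8 in WT mTEChi, mTEClo and cTEC. Fewer reads of a gene in such bulk libraries can mean fewer cells that express it or less RNA per cell, which cannot be told apart here.

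KO was compared with WT in each subset to ask which Hox genes changed with loss of Kat7. In cTEC 3 of the 24 tested Hox genes rose and 11 fell, where 22.3% of all genes tested rose and 26.7% fell. The 3 that rose were Hoxa2, Hoxa3 and Hoxa4, and of the 8 tested cluster A genes 0 fell by edgeR or by DESeq2 (2 at an unadjusted p under 0.05, Hoxa5 and Hoxa13). Of the others 4 of 6 in cluster B, 5 of 6 in C and 2 of 4 in D fell. In mTEClo 0 rose by edgeR, by DESeq2 or at an unadjusted p under 0.05, and 7 fell, where 18.9% of all genes rose and 15.8% fell. In mTEChi 1 rose and 7 fell, where 17.1% of all genes rose and 19.3% fell. Those 7 include Hoxa10, Hoxc11 and Hoxd1, which passed the filter on low counts through WT mTEChi alone, so the filter favoured their fall. A fit of only the groups compared, whose filter left 10 Hox genes to test in cTEC, 10 in mTEClo and 11 in mTEChi, gave 4 lower in cTEC, 1 higher in mTEClo (Hoxa13) and 0 higher in mTEChi. Of the calls above that this fit still tested, it kept 7 of 7 in cTEC, 5 of 5 in mTEClo and 4 of 4 in mTEChi. Hoxa4 was not tested in its mTEChi comparison. DESeq2, which tested Hoxa4, also gave 0 higher in mTEChi. The median log2 fold change of the 24 was -1.12 in mTEChi, -0.80 in mTEClo and -2.34 in cTEC, or -1.12, -0.71 and -1.59 over the 24, 23 and 23 genes with a read in either group when those with no reads in 1 group were placed at the bound that a floor of 3 counts gives. The median of all genes was -0.11, 0.01 and -0.02. The p-values measure the spread between pools of mice, and no date of sorting or sequencing is given in the sources used here, so a batch of pools and the genotype cannot be told apart.

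**Figure D3:**
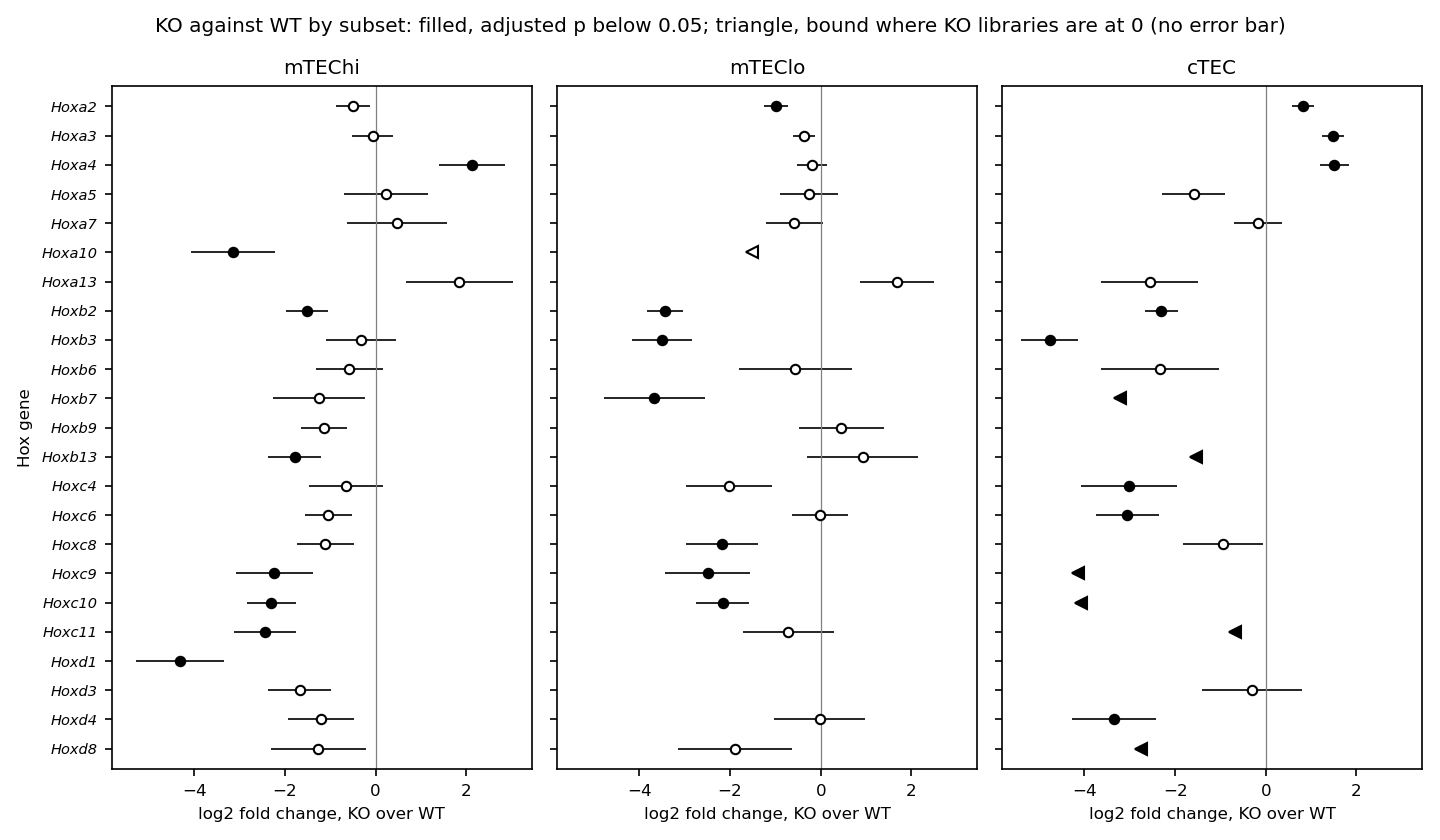
Log2 fold change of KO over WT for tested Hox genes, placed by cluster and paralog number, in mTEChi, mTEClo and cTEC. Filled symbols have an edgeR adjusted p below 0.05, bars are 1 SE, and triangles mark genes with no reads in a group, drawn at the bound against 3 counts. In cTEC Hoxa2, Hoxa3 and Hoxa4 lie above 0 and most B, C and D genes below, and a gene with at most 3 counts in each group has no symbol.

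In cluster A, Hoxa2, which gives the second pharyngeal arch its identity, rose in KO cTEC and fell in KO mTEClo. It stood at 23.8, 24.5 and 30.0 CPM in KO cTEC, against 15.6, 17.2 and 11.7 CPM in WT cTEC. For Hoxa2 in cTEC this gave a log2 fold change of 0.81 (SE 0.25, edgeR adjusted p = 0.00985). All KO cTEC libraries lay above all WT cTEC libraries. In mTEClo it had 7.91, 10.3 and 9.94 CPM in KO mTEClo, against 17.6, 24.2 and 14.0 CPM in WT mTEClo (log2 fold change -0.99, SE 0.26, edgeR adjusted p = 0.00507), and the groups again did not overlap. The mTEChi libraries overlapped, with 1.43, 2.43 and 0.883 CPM in KO mTEChi, against 1.11, 2.73 and 2.85 CPM in WT mTEChi (edgeR adjusted p = 0.314). Hoxa2 was not called in cTEC without KO pool 6 (adjusted p = 0.0510).

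Hoxa3, the paralog needed for thymus formation, rose in KO cTEC. Its levels were 26.9, 35.0 and 28.2 CPM in KO cTEC, against 7.57, 12.1 and 12.4 CPM in WT cTEC. For Hoxa3 in cTEC this gave a log2 fold change of 1.48 (SE 0.24, edgeR adjusted p = 3.32e-05). The lowest KO cTEC library was above the highest WT cTEC library. Hoxa3 had 7.03, 6.53 and 8.0 CPM in KO mTEClo, against 8.58, 10.7 and 8.48 CPM in WT mTEClo, where every KO library lay below every WT library but the difference was not called (log2 fold change -0.36, SE 0.25, edgeR adjusted p = 0.274). With 1.08, 0.987 and 0.442 CPM in KO mTEChi, against 0.277, 0.832 and 1.36 CPM in WT mTEChi, the mTEChi groups overlapped (edgeR adjusted p = 0.921).

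Hoxa4, a gene of neck vertebra patterning, rose in KO cTEC and in KO mTEChi. In cTEC it measured 8.58, 14.6 and 10.3 CPM in KO cTEC, against 2.55, 4.62 and 4.47 CPM in WT cTEC. For Hoxa4 in cTEC this gave a log2 fold change of 1.51 (SE 0.32, edgeR adjusted p = 0.000622). In mTEChi it measured 0.478, 0.759 and 0.883 CPM in KO mTEChi, against 0, 0.119 and 0.271 CPM in WT mTEChi. For Hoxa4 in mTEChi this gave a ratio of pooled levels of 4.57 (exact 95% counting interval 1.35 to 24.0, edgeR adjusted p = 0.0273). No KO library overlapped the WT libraries in either subset, but the mTEChi values rested on few reads and the call ended without KO pool 5, KO pool 6, WT pool 1 or WT pool 2 (adjusted p from 0.0614 to 0.101) or by DESeq2 (adjusted p = 0.0654). The mTEClo libraries overlapped, at 3.18, 4.62 and 2.75 CPM in KO mTEClo, against 3.17, 4.79 and 4.16 CPM in WT mTEClo (edgeR adjusted p = 0.698).

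Hoxa10, a posterior gene known for its part in the uterus and lumbar vertebrae, was the cluster A gene that fell in KO mTEChi. It stood at 0.120, 0.228 and 0.147 CPM in KO mTEChi, against 1.94, 1.19 and 1.76 CPM in WT mTEChi (log2 fold change -3.14, SE 0.92, edgeR adjusted p = 0.0150), with no overlap. Elsewhere it was near 0, with 0, 0 and 0 CPM in KO mTEClo, against 0.102, 0 and 0.446 CPM in WT mTEClo, and 0, 0 and 0 CPM in KO cTEC, against 0.146, 0 and 0 CPM in WT cTEC. The mTEChi call ended without KO pool 4, KO pool 6 or WT pool 3 (adjusted p = 0.0609, 0.0507 and 0.0568) or by DESeq2 (adjusted p = 0.0501). Hoxa5, Hoxa7 and Hoxa13 were called in no KO against WT comparison in the fit of all 6 groups, and their library levels ran from 0 to 2.07 CPM. In cTEC, Hoxa5 was called lower without KO pool 5 or WT pool 1 (edgeR adjusted p = 0.0484 and 0.0446), and Hoxa13 with RLE scaling or without WT pool 3 (edgeR adjusted p = 0.0470 and 0.00573).

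**Figure D4:**
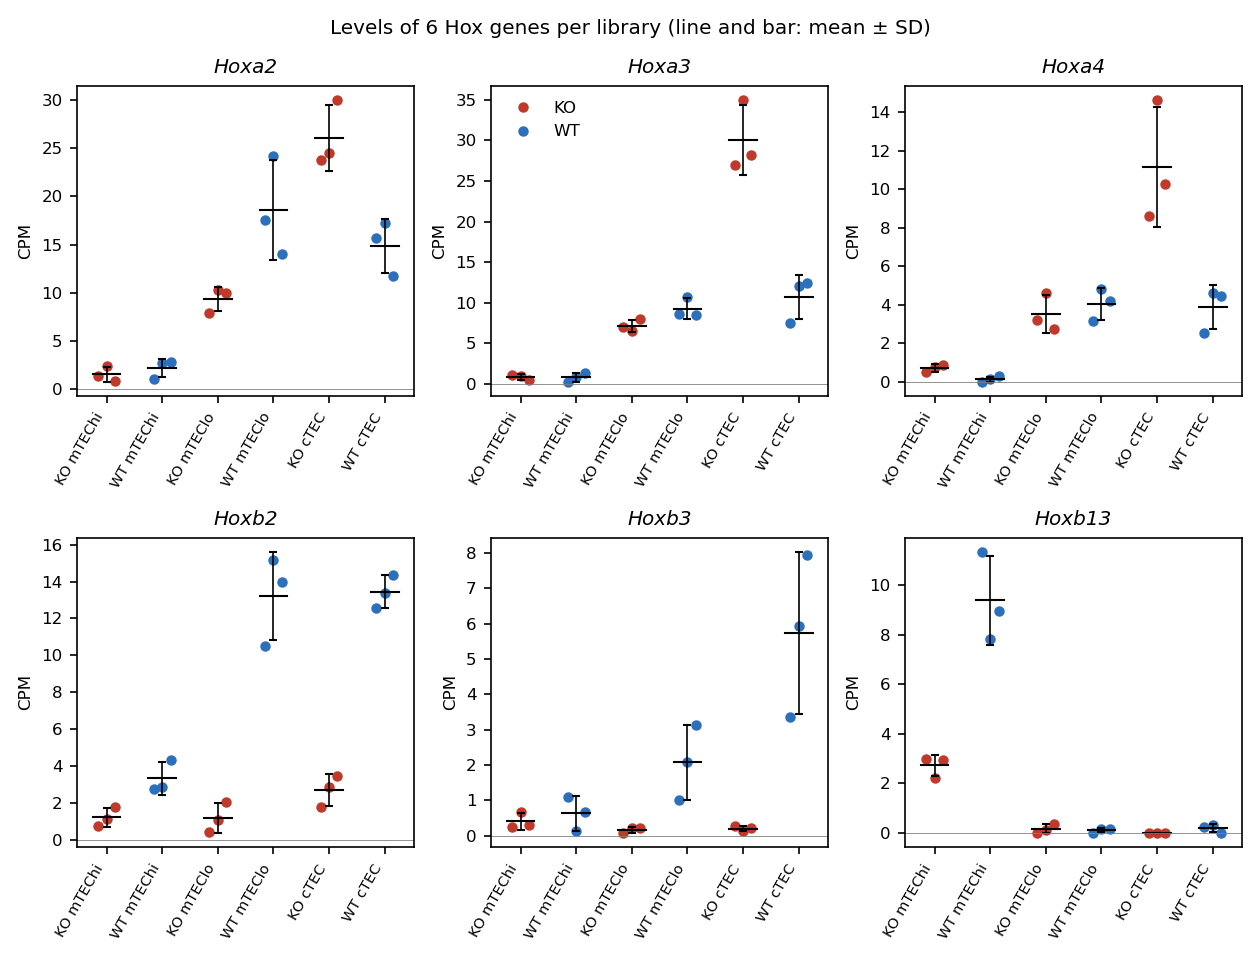
Level (CPM, linear axes from 0) of Hoxa2, Hoxa3, Hoxa4, Hoxb2, Hoxb3 and Hoxb13 in each library, with KO to the left of WT within each subset and a line at the mean of the 3 libraries. Hoxa2, Hoxa3 and Hoxa4 are higher in KO than in WT cTEC, Hoxb2 and Hoxb3 are lower, and Hoxb13 is read mainly in mTEChi, where KO lies below WT.

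In cluster B, Hoxb2, which patterns the hindbrain and facial nerve, fell in KO cells of all 3 subsets. In cTEC it stood at 1.78, 2.85 and 3.47 CPM in KO cTEC, against 12.6, 13.4 and 14.4 CPM in WT cTEC. For Hoxb2 in cTEC this gave a log2 fold change of -2.30 (SE 0.36, edgeR adjusted p = 3.09e-05). In mTEClo the levels were 0.406, 1.07 and 2.04 CPM in KO mTEClo, against 10.5, 15.2 and 14.0 CPM in WT mTEClo. For Hoxb2 in mTEClo this gave a log2 fold change of -3.44 (SE 0.40, edgeR adjusted p = 1.58e-06). In mTEChi they were 0.717, 1.14 and 1.77 CPM in KO mTEChi, against 2.77, 2.85 and 4.34 CPM in WT mTEChi. For Hoxb2 in mTEChi this gave a log2 fold change of -1.51 (SE 0.46, edgeR adjusted p = 0.0156). Every KO library was below every WT library of its subset. The mTEChi call ended without KO pool 4, KO pool 5 or WT pool 3 (adjusted p = 0.0720, 0.0531 and 0.0911).

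Hoxb3, which acts with Hoxa3 in the descent of the thymus in mice, fell in cTEC and mTEClo. It measured 0.264, 0.129 and 0.210 CPM in KO cTEC, against 3.35, 5.94 and 7.93 CPM in WT cTEC. For Hoxb3 in cTEC this gave a log2 fold change of -4.77 (SE 0.62, edgeR adjusted p = 3.47e-06). In mTEClo the values were 0.0676, 0.225 and 0.204 CPM in KO mTEClo, against 1.02, 2.07 and 3.12 CPM in WT mTEClo. For Hoxb3 in mTEClo this gave a log2 fold change of -3.50 (SE 0.66, edgeR adjusted p = 0.000332). The groups did not overlap in either subset. In mTEChi they did, at 0.239, 0.683 and 0.294 CPM in KO mTEChi, against 1.11, 0.119 and 0.678 CPM in WT mTEChi (edgeR adjusted p = 0.764).

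Hoxb7, a gene active in the ureteric bud of the kidney, fell in cTEC and mTEClo. No read of it was found in KO cTEC, against 1.75, 0.265 and 0 CPM in WT cTEC. The pooled level was at least 9.34-fold lower in KO cTEC (edgeR adjusted p = 0.00615), set against a floor of 3 counts over the group, or 0.0605 CPM, which is used for every gene without reads in KO cTEC. WT pool 1 held most of the WT cTEC reads, and WT pool 3 held none. The Hoxb7 call in cTEC ended without WT pool 1 (adjusted p = 0.0666). In mTEClo Hoxb7 had 0.203, 0.0563 and 0.0510 CPM in KO mTEClo, against 0.919, 1.42 and 1.78 CPM in WT mTEClo (log2 fold change -3.67, SE 1.12, edgeR adjusted p = 0.0165), with no overlap. The Hoxb7 call in mTEClo ended without KO pool 5, KO pool 6 or WT pool 3 (adjusted p = 0.0618, 0.0676 and 0.0509). In mTEChi it had 0.239, 0.987 and 0.147 CPM in KO mTEChi, against 0.831, 0.832 and 1.90 CPM in WT mTEChi, and the groups overlapped (edgeR adjusted p = 0.350).

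Hoxb13 fell in mTEChi, the subset with most of its reads, with 2.99, 2.20 and 2.94 CPM in KO mTEChi, against 11.4, 7.84 and 8.95 CPM in WT mTEChi. For Hoxb13 in mTEChi this gave a log2 fold change of -1.79 (SE 0.59, edgeR adjusted p = 0.0254). Every KO library was below every WT library, yet the call ended without any 1 of the 6 libraries (adjusted p from 0.0584 to 0.0953). In cTEC it had no read in KO and 0.218, 0.318 and 0 CPM in WT cTEC, at least 2.90-fold lower in KO (edgeR adjusted p = 0.0259). The Hoxb13 call in cTEC ended without KO pool 4, KO pool 5, KO pool 6 or WT pool 2 (adjusted p from 0.0552 to 0.107). Levels in mTEClo were 0, 0.113 and 0.357 CPM in KO mTEClo, against 0, 0.130 and 0.149 CPM in WT mTEClo (edgeR adjusted p = 0.597). Hoxb6 and Hoxb9, the other tested genes of the cluster, were not called in the fit of all 6 groups. Hoxb9, a gene of the thorax and mammary gland, had 1.91, 3.57 and 2.94 CPM in KO mTEChi, against 5.54, 6.41 and 6.64 CPM in WT mTEChi, a log2 fold change of -1.14 (SE 0.50) with no overlap that missed the threshold (edgeR adjusted p = 0.0850). A fit of only the mTEChi groups called it lower (edgeR adjusted p = 0.00587).

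Cluster C has no anterior genes in the mouse, and its tested members fell or were not called. Hoxc4, its most anterior gene, fell in cTEC, with 0, 0 and 0.105 CPM in KO cTEC, against 0.800, 0.159 and 0.266 CPM in WT cTEC. For Hoxc4 in cTEC this gave a ratio of pooled levels of 0.109 (exact 95% counting interval 0.0123 to 0.452, edgeR adjusted p = 0.0234). The groups did not overlap. The Hoxc4 call in cTEC ended without KO pool 4, KO pool 5 or WT pool 1 (adjusted p = 0.0776, 0.0822 and 0.128). Hoxc4 stood at 0.203, 0 and 0.153 CPM in KO mTEClo, against 0.409, 0.518 and 0.595 CPM in WT mTEClo, and at 0.478, 1.06 and 0.147 CPM in KO mTEChi, against 1.38, 0.950 and 0.678 CPM in WT mTEChi, neither of them called. Hoxc6, which helps set motor neuron identity at forelimb level, fell in cTEC, with 0.132, 0 and 0.210 CPM in KO cTEC, against 0.364, 0.849 and 1.92 CPM in WT cTEC. For Hoxc6 in cTEC this gave a log2 fold change of -3.05 (SE 0.69, edgeR adjusted p = 0.00111), and the groups did not overlap. In mTEClo it had 0.608, 0.620 and 0.969 CPM in KO mTEClo, against 0.715, 0.777 and 0.744 CPM in WT mTEClo, with overlap (edgeR adjusted p = 0.998). In mTEChi it had 2.03, 3.57 and 1.77 CPM in KO mTEChi, against 5.81, 4.87 and 4.88 CPM in WT mTEChi, where every KO library lay lower without a call in the fit of all 6 groups (edgeR adjusted p = 0.123). A fit of only the mTEChi groups called it lower (edgeR adjusted p = 0.0212).

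Hoxc8, a gene of forelimb-level motor neurons, fell in mTEClo, with 0.0676, 0.169 and 0.204 CPM in KO mTEClo, against 0.306, 1.30 and 0.595 CPM in WT mTEClo. For Hoxc8 in mTEClo this gave a log2 fold change of -2.18 (SE 0.79, edgeR adjusted p = 0.0372). Every KO mTEClo library was below every WT one. The Hoxc8 call in mTEClo ended without KO pool 4, KO pool 5, KO pool 6, WT pool 2 or WT pool 3 (adjusted p from 0.0604 to 0.259) or with no filter on low counts (adjusted p = 0.0505). In mTEChi Hoxc8 had 0.717, 1.75 and 1.47 CPM in KO mTEChi, against 3.88, 1.54 and 3.39 CPM in WT mTEChi and in cTEC 0.132, 0 and 0.158 CPM in KO cTEC, against 0.364, 0.106 and 0.160 CPM in WT cTEC, both with overlap and without a call.

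Of the posterior genes of cluster C, Hoxc12 and Hoxc13 were not tested. The others, Hoxc9, Hoxc10 and Hoxc11, were each called lower in more than 1 subset in the fit of all 6 groups. Hoxc9, a gene of thoracic motor neurons, fell in mTEChi, with 0.478, 0.987 and 0 CPM in KO mTEChi, against 1.11, 2.85 and 3.53 CPM in WT mTEChi. For Hoxc9 in mTEChi this gave a log2 fold change of -2.23 (SE 0.85, edgeR adjusted p = 0.0467). In mTEClo it fell with 0.135, 0.225 and 0.153 CPM in KO mTEClo, against 1.33, 0.648 and 1.04 CPM in WT mTEClo. For Hoxc9 in mTEClo this gave a log2 fold change of -2.49 (SE 0.94, edgeR adjusted p = 0.0471). Neither pair of groups overlapped, and the call ended in mTEChi without KO pool 4, KO pool 6, WT pool 2 or WT pool 3 (adjusted p from 0.111 to 0.158) and in mTEClo without any 1 of the 6 libraries (adjusted p from 0.0599 to 0.133). No read of Hoxc9 was found in KO cTEC, against 0.291, 0.371 and 2.34 CPM in WT cTEC, most of it in pool 3 (at least 17.7-fold lower in KO, edgeR adjusted p = 0.000790).

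Hoxc10, a gene of the lumbar spinal cord and hindlimb, fell in all 3 subsets and kept its call in every alternative run. In mTEChi it stood at 0.598, 1.29 and 0.736 CPM in KO mTEChi, against 5.26, 4.63 and 3.66 CPM in WT mTEChi. For Hoxc10 in mTEChi this gave a log2 fold change of -2.30 (SE 0.54, edgeR adjusted p = 0.00324). In mTEClo the values were 0.203, 0.620 and 0.204 CPM in KO mTEClo, against 1.12, 1.30 and 2.38 CPM in WT mTEClo. For Hoxc10 in mTEClo this gave a log2 fold change of -2.16 (SE 0.58, edgeR adjusted p = 0.00699). In cTEC no KO library held a read and WT held 1.46, 0.902 and 0.799 CPM (at least 16.7-fold lower in KO, edgeR adjusted p = 2.12e-05). The groups did not overlap in any subset. In the GENCODE vM21 annotation the exons of Hoxc10 share 166 bases with those of Hoxc5, so reads there could belong to either gene. In the RefSeq annotation of GRCm38.p6 Hoxc10 overlaps no other gene.

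Hoxc11, its posterior neighbour, fell in mTEChi, with 0.598, 0.455 and 0.442 CPM in KO mTEChi, against 2.77, 2.85 and 2.58 CPM in WT mTEChi. For Hoxc11 in mTEChi this gave a log2 fold change of -2.43 (SE 0.68, edgeR adjusted p = 0.00990), and the groups did not overlap. In cTEC it had no read in KO and 0, 0.106 and 0.160 CPM in WT (at least 1.61-fold lower in KO, edgeR adjusted p = 0.0446). The Hoxc11 call in cTEC ended without KO pool 4, KO pool 5, KO pool 6, WT pool 2 or WT pool 3 (adjusted p from 0.0734 to 0.134) or with no filter on low counts (adjusted p = 0.0611) or by DESeq2 (adjusted p = 0.0712). Its mTEClo levels of 0.135, 0.169 and 0 CPM in KO mTEClo, against 0.102, 0.259 and 0.149 CPM in WT mTEClo were not called (edgeR adjusted p = 0.620).

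In cluster D, Hoxd1, which shapes pain-sensing neurons in mice, was read in mTEChi and in no other subset. It fell in KO mTEChi, with 0.239, 0 and 0.147 CPM in KO mTEChi, against 1.11, 3.45 and 2.44 CPM in WT mTEChi. For Hoxd1 in mTEChi this gave a ratio of pooled levels of 0.0403 (exact 95% counting interval 0.00804 to 0.125, edgeR adjusted p = 0.00497). The groups did not overlap. The Hoxd1 call in mTEChi ended by DESeq2 (adjusted p = 0.413). All 12 libraries of mTEClo and cTEC were at 0. Hoxd3, a gene of the first neck vertebra that shares functions with Hoxa3, was also read mainly in mTEChi, at 1.55, 1.67 and 1.77 CPM in KO mTEChi, against 5.54, 6.41 and 4.07 CPM in WT mTEChi, a log2 fold change of -1.68 (SE 0.69) that missed the threshold (edgeR adjusted p = 0.0661) although no library overlapped. It was called lower there by DESeq2 (adjusted p = 0.0398) and in a fit of only the groups compared (edgeR adjusted p = 0.000643).

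Hoxd4, a gene of the hindbrain and neck vertebrae, fell in cTEC, with 0, 0.194 and 0.0526 CPM in KO cTEC, against 1.02, 0.849 and 0.905 CPM in WT cTEC. For Hoxd4 in cTEC this gave a log2 fold change of -3.36 (SE 0.93, edgeR adjusted p = 0.00537), and the groups did not overlap. It was not called in mTEChi, where it had 0.837, 2.05 and 0.442 CPM in KO mTEChi, against 4.15, 1.78 and 2.44 CPM in WT mTEChi, nor in mTEClo, where it had 0.203, 0.169 and 0 CPM in KO mTEClo, against 0.306, 0 and 0 CPM in WT mTEClo. In GENCODE vM21 the annotated exons of Hoxd3 and Hoxd4 share 388 bases, so their reads are uncertain between the pair. Hoxd8, a central gene of the trunk, had no read in KO cTEC and 0.437, 0.796 and 0 CPM in WT cTEC (at least 6.76-fold lower in KO, edgeR adjusted p = 0.00997). The Hoxd8 call in cTEC ended without WT pool 2 (adjusted p = 0.0514). It had 0.598, 0.228 and 0.294 CPM in KO mTEChi, against 1.38, 0.238 and 1.22 CPM in WT mTEChi, and 0.135, 0.113 and 0 CPM in KO mTEClo, against 0.613, 0.130 and 0.149 CPM in WT mTEClo, with no call in either.

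Within paralog groups 2 to 4 the cluster A member took a larger mean share of the reads in KO than in WT libraries. These groups hold the cluster A genes called higher in KO cTEC, so their cTEC shares follow in part from those calls. In cTEC other groups went both ways, with a lower mean share in KO for Hoxa5 (57.2% ± 43.3 against 61.7% ± 15.7) and a higher one for Hoxa7 (100% against 65.7% ± 43.2). In mTEClo the Hoxa2 share was larger in KO although Hoxa2 itself fell, since Hoxb2 fell more. The share of reads from Hoxa2, among Hoxa2 and Hoxb2, was 56.0% ± 19.7 in KO mTEChi, 89.5% ± 6.13 in KO mTEClo and 90.7% ± 1.98 in KO cTEC, against 39.0% ± 10.2, 58.0% ± 6.96 and 52.2% ± 6.33 in WT mTEChi, mTEClo and cTEC (SD, n = 3 each). Hoxa3 made up 97.7% ± 1.21 of group 3 reads in KO mTEClo and 99.0% ± 0.460 in KO cTEC, against 81.5% ± 7.50 in WT mTEClo and 65.0% ± 3.46 in WT cTEC (SD, n = 3 each). In mTEChi Hoxd3 led that group in both genotypes, and Hoxa3 held 28.2% ± 9.99 in KO and 12.5% ± 9.17 in WT (SD, n = 3 each). Among group 4 reads Hoxa4 took 98.2% ± 0.932 in KO cTEC and 67.4% ± 13.2 in WT cTEC, and 30.2% ± 14.5 in KO mTEChi and 3.21% ± 3.05 in WT mTEChi (SD, n = 3 each). These are shares of reads, not corrected for gene length, and no test was run on them.

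**Figure D5:**
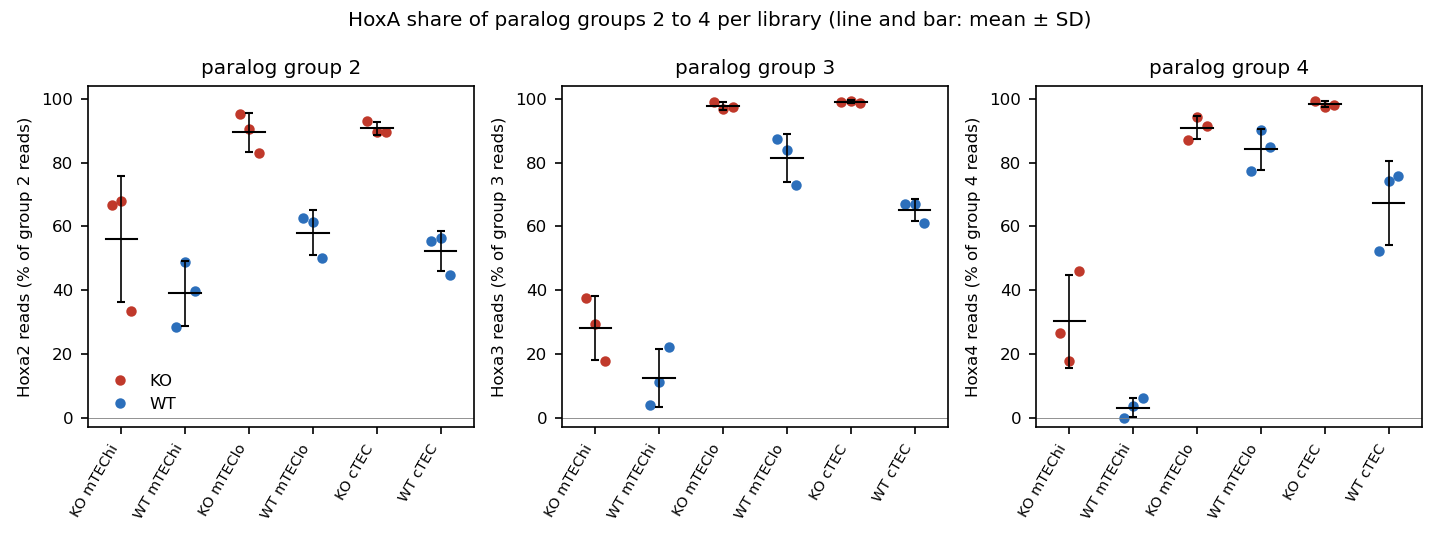
Share of the reads of paralog groups 2, 3 and 4 that came from the cluster A member (percent, from 0 to 100), with a line for the mean, error bars for the SD and points for the 3 libraries of each group. In cTEC Hoxa2, Hoxa3 and Hoxa4 hold 90.7%, 99.0% and 98.2% in KO, against 52.2%, 65.0% and 67.4% in WT.

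The subset in which a gene changed was tested by the difference of KO effects between subsets, over libraries of the same 6 pools. Between mTEChi and mTEClo 2 Hox genes differed upward, where 6.72% of all genes did, and 0 downward by edgeR, by DESeq2 or at an unadjusted p under 0.05, where 6.78% did. The KO effect on Hoxb3 was less negative in mTEChi (difference of log2 fold changes 3.18, SE 1.01, edgeR adjusted p = 0.0417), as was that on Hoxb2 (1.94, SE 0.61, edgeR adjusted p = 0.0395). Between mTEChi and cTEC 3 differed upward and 2 downward, where 18.3% and 13.2% of all genes did. The KO effect on Hoxb3 was also less negative in mTEChi than in cTEC (4.45, SE 0.99, edgeR adjusted p = 0.00193), and the KO effect on Hoxa2 (-1.32, SE 0.45, edgeR adjusted p = 0.0324) and Hoxa3 (-1.55, SE 0.52, edgeR adjusted p = 0.0293) was lower in mTEChi than in cTEC. The calls between mTEChi and mTEClo ended for Hoxb3 without KO mTEChi pool 5, KO mTEChi pool 6, KO mTEClo pool 4, KO mTEClo pool 5, KO mTEClo pool 6, WT mTEChi pool 2, WT mTEChi pool 3, WT mTEClo pool 2 or WT mTEClo pool 3 (adjusted p from 0.0529 to 0.218). That for Hoxb2 ended without KO mTEChi pool 5, KO mTEChi pool 6, KO mTEClo pool 4, KO mTEClo pool 5, WT mTEChi pool 1, WT mTEChi pool 2, WT mTEClo pool 2 or WT mTEClo pool 3 (adjusted p from 0.0654 to 0.125). Those between mTEChi and cTEC ended for Hoxa2 without KO mTEChi pool 4, KO mTEChi pool 6, KO cTEC pool 6, WT mTEChi pool 2, WT mTEChi pool 3 or WT cTEC pool 3 (adjusted p from 0.0524 to 0.118) or in a fit of only the groups compared (adjusted p = 0.0708). That for Hoxa3 ended without KO mTEChi pool 6, KO cTEC pool 5, WT mTEChi pool 2 or WT mTEChi pool 3 (adjusted p from 0.0602 to 0.241) or in a fit of only the groups compared (adjusted p = 0.0730).

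Between mTEClo and cTEC 3 genes differed upward and 3 downward, where 16.4% and 9.54% of all genes did. The downward ones were Hoxa3 (-1.85, SE 0.34, edgeR adjusted p = 0.000469), Hoxa2 (-1.80, SE 0.35, edgeR adjusted p = 0.000854) and Hoxa4 (-1.71, SE 0.46, edgeR adjusted p = 0.0102), whose KO effect was lower in mTEClo than in cTEC. The KO effect on Hoxc6 was less negative in mTEClo than in cTEC (3.04, SE 0.93, edgeR adjusted p = 0.0202), a call that ended without KO mTEClo pool 6, KO cTEC pool 5 or WT cTEC pool 3 (adjusted p = 0.0531, 0.0518 and 0.0540) or in a fit of only the groups compared (adjusted p = 0.0501). Hoxc10 and Hoxa13 differed upward against cTEC in both mTEChi and mTEClo. In KO cTEC libraries Hoxc10 had 0 reads and Hoxa13 at most 0.0647 CPM, so the size of those differences depends on the prior count of the fit. The Hoxa13 call in mTEChi ended with pools as a block (edgeR adjusted p = 0.0510) or without KO mTEChi pool 4, KO mTEChi pool 5, KO cTEC pool 4, KO cTEC pool 5, KO cTEC pool 6, WT mTEChi pool 2, WT mTEChi pool 3, WT cTEC pool 1 or WT cTEC pool 2 (adjusted p from 0.0530 to 0.101), and that in mTEClo without KO cTEC pool 4, WT mTEClo pool 3 or WT cTEC pool 1 (adjusted p = 0.0598, 0.0520 and 0.0859).

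Subsets were next compared within a genotype, to ask where each Hox gene was read most. In WT mTEChi against WT mTEClo 11 of the 24 were higher and 8 lower, where 32.6% and 26.7% of all genes were. Higher were 5 of 7 tested posterior genes, and lower were 6 of 8 cluster A genes. Among all 11 higher genes, Hoxa10, Hoxc11 and Hoxd1 passed the filter on low counts through WT mTEChi alone. Hoxb6, Hoxb9, Hoxb13 and Hoxd3 passed it through the mTEChi groups alone. For every gene so named the filter favoured a higher level in mTEChi. Hoxb9 was higher in WT mTEChi than in WT mTEClo (ratio of pooled levels 51.2, exact 95% counting interval 17.1 to 252, edgeR adjusted p = 3.85e-06). Lower there were Hoxa3 (log2 fold change -3.33, SE 0.35, edgeR adjusted p = 1.20e-07), Hoxa2 (log2 fold change -2.95, SE 0.32, edgeR adjusted p = 1.58e-07) and Hoxa4 (ratio of pooled levels 0.0390, exact 95% counting interval 0.00791 to 0.118, edgeR adjusted p = 1.35e-06). Hoxb9 stood at 5.54, 6.41 and 6.64 CPM in WT mTEChi, against 0.204, 0.130 and 0 CPM in WT mTEClo and 0, 0.106 and 0 CPM in WT cTEC. Its WT mTEChi libraries were the high ones, with no overlap.

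WT mTEChi against WT cTEC gave 10 higher and 7 lower, where 35.9% and 28.5% of all genes were. The same 4 genes led, with Hoxa3 (log2 fold change -3.54, SE 0.34, edgeR adjusted p = 2.78e-08), Hoxa2 (log2 fold change -2.62, SE 0.31, edgeR adjusted p = 5.10e-07) and Hoxa4 (ratio of pooled levels 0.0386, exact 95% counting interval 0.00789 to 0.114, edgeR adjusted p = 9.07e-07) lower in WT mTEChi and Hoxb9 (ratio of pooled levels 163, exact 95% counting interval 44.1 to 1359, edgeR adjusted p = 2.50e-07) higher. Of the 10 genes higher in WT mTEChi, Hoxa10, Hoxc11 and Hoxd1 passed the filter on low counts through WT mTEChi alone. Hoxb6, Hoxb9, Hoxb13 and Hoxd3 passed it through the mTEChi groups alone. For all of these genes the filter favoured a higher level in mTEChi. WT mTEClo against WT cTEC gave few calls. By edgeR and by DESeq2 0 were higher (1 at an unadjusted p under 0.05) and 2 lower, where 13% and 14.4% of all genes were. Those lower in WT mTEClo were Hoxb3 (log2 fold change -1.50, SE 0.51, edgeR adjusted p = 0.0355) and Hoxd4 (ratio of pooled levels 0.135, exact 95% counting interval 0.0269 to 0.420, edgeR adjusted p = 0.0410). The Hoxb3 call ended without WT mTEClo pool 1, WT mTEClo pool 2, WT cTEC pool 2 or WT cTEC pool 3 (adjusted p from 0.0564 to 0.151) or in a fit of only the groups compared (adjusted p = 0.0622), and the Hoxd4 call ended without WT mTEClo pool 2, WT mTEClo pool 3 or WT cTEC pool 1 (adjusted p = 0.140, 0.129 and 0.0660) or in a fit of only the groups compared (adjusted p = 0.0651). These contrasts share WT libraries with each other.

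In KO cells mTEChi and mTEClo differed at 10 Hox genes that were higher in mTEChi and 4 that were lower, where 23% and 22.4% of all genes were. Lower in KO mTEChi were Hoxa3 (log2 fold change -3.03, SE 0.32, edgeR adjusted p = 2.52e-07) and Hoxa2 (log2 fold change -2.46, SE 0.31, edgeR adjusted p = 2.34e-06). Higher were Hoxb9 (log2 fold change 3.97, SE 0.62, edgeR adjusted p = 4.64e-05), at 1.91, 3.57 and 2.94 CPM in KO mTEChi and 0.135, 0.113 and 0.255 CPM in KO mTEClo, and Hoxd3, which had no read in KO mTEClo (at least 28.8-fold higher in KO mTEChi, edgeR adjusted p = 0.000106). Of the 10 higher, Hoxb6, Hoxb9, Hoxb13 and Hoxd3 passed the filter on low counts through the mTEChi groups alone, which favoured that direction. Hoxa10 and Hoxc11 passed it through WT mTEChi alone. With the pool of mice as a block the higher count was 7, and Hoxa10, Hoxc4 and Hoxc11 lost their calls (edgeR adjusted p = 0.0809, 0.106 and 0.0718).

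KO mTEChi against KO cTEC gave 15 higher and 6 lower, where 34% and 28.4% of all genes were. All 7 tested posterior genes, of 16, and all 6 tested cluster C genes were higher in KO mTEChi. Of the 15 higher, Hoxb6, Hoxb9, Hoxb13 and Hoxd3 passed the filter on low counts through the mTEChi groups alone, which favoured that direction. Hoxa10 and Hoxc11 passed it through WT mTEChi alone and Hoxa13 through KO mTEClo alone. Hoxb9 had no read in KO cTEC (at least 48.4-fold higher in KO mTEChi, edgeR adjusted p = 7.41e-07). Lower were Hoxa3 (log2 fold change -5.09, SE 0.32, edgeR adjusted p = 3.42e-11), Hoxa2 (log2 fold change -3.94, SE 0.31, edgeR adjusted p = 1.21e-09) and Hoxa4 (log2 fold change -3.97, SE 0.40, edgeR adjusted p = 4.62e-08). With pools as a block Hoxa10 was not called (edgeR adjusted p = 0.0689).

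KO mTEClo against KO cTEC gave 5 higher and 5 lower, where 21.2% and 15.8% of all genes were. Hoxa3 (log2 fold change -2.06, SE 0.24, edgeR adjusted p = 8.21e-07), Hoxa2 (log2 fold change -1.47, SE 0.25, edgeR adjusted p = 8.55e-05) and Hoxa4 (log2 fold change -1.66, SE 0.32, edgeR adjusted p = 0.000333) were lower in KO mTEClo, while 0 of the 3 were called between WT mTEClo and WT cTEC by edgeR or at an unadjusted p under 0.05. Hoxa13, a gene of digits and the genital tract, was higher in KO mTEClo (ratio of pooled levels 26.2, exact 95% counting interval 6.91 to 221, edgeR adjusted p = 0.00103), with 1.22, 1.01 and 0.969 CPM in KO mTEClo and 0, 0.0647 and 0.0526 CPM in KO cTEC. It passed the filter on low counts through KO mTEClo alone. With pools as a block Hoxb13 was not called (edgeR adjusted p = 0.0573).

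Partners and regulators of Hox genes were counted next, and each count is to be read against the share of all genes. In mTEChi 17.1% rose and 19.3% fell, in mTEClo 18.9% rose and 15.8% fell, and in cTEC 22.3% rose and 26.7% fell. The TALE cofactors (the PBX, MEIS and PKNOX proteins that bind DNA with HOX proteins) had 9 genes tested, of which 3 rose and 2 fell in mTEChi, 1 rose and 3 fell in mTEClo, and 1 rose and 3 fell in cTEC, with median log2 fold changes of -0.23, -0.08 and -0.17. Meis3 fell in all 3 subsets. It stood at 18.2 ± 2.87 CPM in KO mTEChi and 39.0 ± 2.39 CPM in WT mTEChi (SD, n = 3 each). For Meis3 in mTEChi this gave a log2 fold change of -1.10 (SE 0.16, edgeR adjusted p = 2.67e-05). In mTEClo it had 10.2 ± 0.839 CPM in KO mTEClo and 50.7 ± 2.04 CPM in WT mTEClo (SD, n = 3 each, log2 fold change -2.31, SE 0.16, edgeR adjusted p = 1.59e-09), and in cTEC 2.49 ± 0.604 CPM in KO cTEC and 40.7 ± 4.57 CPM in WT cTEC (SD, n = 3 each). For Meis3 in cTEC this gave a log2 fold change of -4.04 (SE 0.18, edgeR adjusted p = 4.45e-12). Pbx3 rose in cTEC, with 58.0 ± 3.42 CPM in KO cTEC and 27.2 ± 7.53 CPM in WT cTEC (SD, n = 3 each). For Pbx3 in cTEC this gave a log2 fold change of 1.09 (SE 0.16, edgeR adjusted p = 1.38e-05).

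Polycomb repressive complex 2, which writes the histone mark of silent Hox genes, had 11 genes, of which 1 rose and 4 fell in mTEChi, 2 and 2 in mTEClo and 3 and 4 in cTEC (medians -0.31, -0.03 and -0.05). Ezh2, a catalytic subunit, fell in mTEClo, with 11.4 ± 2.37 CPM in KO mTEClo and 26.1 ± 2.90 CPM in WT mTEClo (SD, n = 3 each). For Ezh2 in mTEClo this gave a log2 fold change of -1.20 (SE 0.16, edgeR adjusted p = 8.99e-06). Polycomb repressive complex 1, which reads that mark, had 19 genes, of which 4 rose and 2 fell in mTEChi, 2 and 2 in mTEClo and 4 and 3 in cTEC (medians -0.0038, -0.06 and 0.08). Rnf2, its ubiquitin ligase, rose in cTEC, with 103 ± 9.89 CPM in KO cTEC and 54.8 ± 7.72 CPM in WT cTEC (SD, n = 3 each). For Rnf2 in cTEC this gave a log2 fold change of 0.91 (SE 0.13, edgeR adjusted p = 1.03e-05). Of 16 MLL and DOT1L activators, which keep Hox genes active, 4 rose and 1 fell in mTEChi, 3 and 4 in mTEClo and 2 and 3 in cTEC (medians 0.08, 0.04 and -0.15). Kmt2a, the MLL methyltransferase, fell in cTEC, with 86.0 ± 11.9 CPM in KO cTEC and 128 ± 19.2 CPM in WT cTEC (SD, n = 3 each). For Kmt2a in cTEC this gave a log2 fold change of -0.58 (SE 0.13, edgeR adjusted p = 0.00115).

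Retinoic acid induces anterior Hox genes in the embryo. Of 18 genes of its pathway 4 rose and 4 fell in mTEChi, 5 and 2 in mTEClo and 7 and 7 in cTEC (medians -0.35, 0.19 and -0.18). Cyp26a1, which degrades retinoic acid and is induced by it, fell in cTEC, with 0.613 ± 0.433 CPM in KO cTEC and 7.36 ± 4.22 CPM in WT cTEC (SD, n = 3 each). For Cyp26a1 in cTEC this gave a log2 fold change of -3.56 (SE 0.44, edgeR adjusted p = 1.77e-06). Aldh1a1, which makes retinoic acid, rose in mTEClo, with 24.6 ± 2.86 CPM in KO mTEClo and 2.48 ± 0.264 CPM in WT mTEClo (SD, n = 3 each). For Aldh1a1 in mTEClo this gave a log2 fold change of 3.29 (SE 0.23, edgeR adjusted p = 2.30e-09). In cTEC Aldh1a1 also rose, with 92.1 ± 8.77 CPM in KO cTEC and 38.9 ± 9.80 CPM in WT cTEC (SD, n = 3 each, log2 fold change 1.24, SE 0.17, edgeR adjusted p = 7.14e-06), while Aldh1a3, of the same function, fell, with 22.5 ± 1.48 CPM in KO cTEC and 48.8 ± 4.75 CPM in WT cTEC (SD, n = 3 each). For Aldh1a3 in cTEC this gave a log2 fold change of -1.12 (SE 0.15, edgeR adjusted p = 5.07e-06).

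Of 8 ParaHox and Evx genes, the homeobox relatives of the Hox clusters, 4 were tested. By edgeR 3 fell in mTEChi and 2 in cTEC, and the medians were -1.91 in mTEChi, -0.67 in mTEClo and -2.27 in cTEC. Cdx1, an intestinal regulator, fell in cTEC, with 8.18 ± 1.03 CPM in KO cTEC and 52.1 ± 13.8 CPM in WT cTEC (SD, n = 3 each). For Cdx1 in cTEC this gave a log2 fold change of -2.67 (SE 0.18, edgeR adjusted p = 6.12e-10). Cdx2, its relative, fell in mTEChi, with 0.154 ± 0.0818 CPM in KO mTEChi and 2.62 ± 0.212 CPM in WT mTEChi (SD, n = 3 each). For Cdx2 in mTEChi this gave a log2 fold change of -4.08 (SE 0.97, edgeR adjusted p = 0.00295). The noncoding genes of the Hox clusters were mostly too low to test. Hotair, a long noncoding RNA of cluster C, was the 1 tested of 11 found, and fell in mTEChi, with 1.59 ± 0.140 CPM in KO mTEChi and 7.55 ± 1.43 CPM in WT mTEChi (SD, n = 3 each, log2 fold change -2.23, SE 0.51, edgeR adjusted p = 0.00221), and in mTEClo, with 0.175 ± 0.148 CPM in KO mTEClo and 0.835 ± 0.395 CPM in WT mTEClo (SD, n = 3 each). For Hotair in mTEClo this gave a log2 fold change of -2.16 (SE 0.66, edgeR adjusted p = 0.0153). In cTEC its log2 fold change was -1.33 without a call. Of 13 genes of the third pouch network, in which Hoxa3 acts, 12 were tested, and 5 rose and 4 fell in mTEChi, 3 and 4 in mTEClo and 4 and 4 in cTEC (medians -0.79, 0.28 and 0.20). Foxn1, the master regulator of TEC, rose in cTEC, with 307 ± 45.0 CPM in KO cTEC and 120 ± 17.1 CPM in WT cTEC (SD, n = 3 each, log2 fold change 1.35, SE 0.17, edgeR adjusted p = 1.90e-06). Its KO libraries also lay above all WT libraries in mTEChi (252 to 324 against 94.1 to 126 CPM) and in mTEClo (167 to 233 against 56.4 to 84.4 CPM). Pax9 fell in mTEChi, with 24.3 ± 2.35 CPM in KO mTEChi and 58.2 ± 4.26 CPM in WT mTEChi (SD, n = 3 each). For Pax9 in mTEChi this gave a log2 fold change of -1.26 (SE 0.13, edgeR adjusted p = 6.02e-07).

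Because cluster B lies near Kat7, other genes within 2 Mb of Kat7 were counted without the Hoxb genes. Of 79 tested 7 rose and 18 fell in mTEChi, 8 and 11 in mTEClo and 20 and 27 in cTEC, with a median log2 fold change of -0.29 in mTEChi, 0 in mTEClo and -0.05 in cTEC. Over all genes the shares were 17.1% higher and 19.3% lower in mTEChi, 18.9% and 15.8% in mTEClo, and 22.3% and 26.7% in cTEC. The part of the position near Kat7 in the Hoxb values was not tested.

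Marker lists of the sorted cells, and of cells a thymic sort can carry over, were counted in the same way, against 17.1% of all genes higher and 19.3% lower in mTEChi, 18.9% and 15.8% in mTEClo, and 22.3% and 26.7% in cTEC. Of 9 markers of TEC in general 6 rose and 2 fell in mTEChi, 4 and 3 in mTEClo and 4 and 1 in cTEC. Their summed level went the other way in mTEChi, at 51132 to 57877 CPM in KO and 59211 to 62203 CPM in WT. It did so too in mTEClo, at 20088 to 23469 CPM in KO and 24901 to 28711 CPM in WT. In cTEC the sums overlapped, at 26927 to 31657 CPM in KO and 24025 to 28538 CPM in WT. Of 9 cTEC markers 7 rose and 1 fell in mTEChi, 7 and 0 in mTEClo and 7 and 0 in cTEC, where their summed level was 9000 to 13215 CPM in KO and 4138 to 7015 CPM in WT. Of 10 mTEC markers 1 rose and 2 fell in mTEChi, 3 and 5 in mTEClo and 0 and 8 in cTEC. The summed mTEC markers were at 2720 to 2852 CPM in KO mTEChi and 3441 to 3529 in WT mTEChi, at 1033 to 1362 in KO mTEClo and 2253 to 2296 in WT mTEClo, and at 493 to 742 CPM in KO cTEC and 1439 to 1616 in WT cTEC.

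Of 15 thymocyte markers 12 rose and 0 fell in cTEC, with a summed level of 330 to 528 CPM in KO and 88.8 to 185 CPM in WT, 2 rose and 3 fell in mTEChi and 4 and 1 in mTEClo. Of 11 tested macrophage and dendritic cell markers 0 rose and 9 fell in mTEChi (825 to 960 CPM in KO, 1571 to 1624 CPM in WT), 1 and 1 in mTEClo and 0 and 5 in cTEC. Of 11 tested fibroblast markers 2 rose and 4 fell in mTEChi, 4 and 2 in mTEClo and 2 and 5 in cTEC, where the sum was 2310 to 2461 CPM in KO and 886 to 1097 CPM in WT. The median log2 fold change of these 11 in cTEC was -1.08, opposite in direction to the sum. Of 8 mural cell markers 2 rose and 2 fell in mTEChi, 0 and 5 in mTEClo (365 to 506 CPM in KO, 909 to 1162 CPM in WT) and 1 and 5 in cTEC, and of 5 tested endothelial markers 1 rose and 2 fell, 1 and 0, and 0 and 1. No marker of these lists was at 0 throughout a group except Twist2 in WT mTEClo, and the part of these cells and of the balance between TEC subsets in the Hox results was not tested.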

How the data were processed

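RNA from sorted TEC was amplified with the SMART-Seq v4 kit and tagmented with Nextera XT, per the labels' protocols, which do not record strand. Reads from bases that overlapping or antisense genes share therefore could not be told apart. In the RefSeq annotation of GRCm38.p6, 7 of 11 cluster A genes, 5 of 10 in B, 3 of 9 in C and 5 of 9 in D overlap another gene in span, introns included. Among them are Hoxa3 and Hoxa4, Hoxb2 and Hoxb3 with an antisense transcript, and Hoxd3 and Hoxd4. In GENCODE vM21 the exons of Hoxa3 and Hoxa4 share 0 bases, while those of Hoxd3 and Hoxd4 share 388. The deposited values were raw counts per gene made by the authors with featureCounts on mm10, per the submitters' processing notes. The aligner, and every version, is not given in the sources used here. The gene lengths used for CPM per kb came from the authors' deposited files. Promoter windows came from RefSeq (GRCm38.p6).

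Differences were tested with edgeR 4.0.16 (R 4.3.3). Its filterByExpr (minimum count 10) kept 19364 genes, libraries were scaled by TMM, and 6 group means were fitted to all 18 libraries (12 residual degrees of freedom). Contrasts were tested with glmQLFTest, with Benjamini-Hochberg adjustment over all genes tested and a threshold of 0.05. SE was derived from the test. Alternatives were RLE scaling, no filter, only the groups compared, each library left out, DESeq2 1.42.0 and pools of mice as a block (8 residual degrees of freedom), and for detection 1 or 10 reads in place of 5 (means of 10 thinnings). The fit of all 6 groups was tested on simulated data with changes set in KO cTEC alone. Those changes were placed in genes of higher mean level than most Hox genes, so calls at Hox depth were not covered.

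KO and WT came from different pools. Within a genotype the labels tie the subsets to pools of mice. Deviations from group means correlated at -0.000944 to 0.239 (median 0.0602) for 18 pairs of the same pool and at -0.181 to 0.0577 for 36 pairs of other pools. Libraries of a group correlated at 0.948 to 0.989 (log2 CPM).

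Some member values are not reported here. The Hox members and the 16 gene lists (202 genes, 188 matched) were chosen with earlier results of these data known. Every Hox gene called in KO against WT, and Hoxa3, is given with each library's value. In subset contrasts up to 4 called genes by smallest adjusted p are named, and examples from lists are among the 4 with the smallest adjusted p. A group with 1 to 3 counts is given by a ratio of pooled levels with an exact (conditional binomial) 95% interval. Intervals and floors cover counting error only, since no molecular identifiers were used.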

Additional observations from a re-analysis of the deposited data

Results flagged for a closer look

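These KO effects on a Hox gene differed between subsets by the test of the difference itself (log2 fold change of KO over WT in the first subset minus that in the second, n = 3 libraries per group, edgeR adjusted p). Between mTEChi and mTEClo the difference was 3.18 for Hoxb3 (adjusted p = 0.0417) and 1.94 for Hoxb2 (adjusted p = 0.0395). Between mTEChi and cTEC it was 4.45 for Hoxb3 (adjusted p = 0.00193), 4.42 for Hoxc10 (adjusted p = 0.00982), 4.41 for Hoxa13 (adjusted p = 0.0386), -1.32 for Hoxa2 (adjusted p = 0.0324) and -1.55 for Hoxa3 (adjusted p = 0.0293). Between mTEClo and cTEC it was 4.55 for Hoxc10 (adjusted p = 0.0115), 4.25 for Hoxa13 (adjusted p = 0.0243), 3.04 for Hoxc6 (adjusted p = 0.0202), -1.80 for Hoxa2 (adjusted p = 0.000854), -1.85 for Hoxa3 (adjusted p = 0.000469) and -1.71 for Hoxa4 (adjusted p = 0.0102). The Hoxc10 values rest on a KO cTEC group with no reads and the Hoxa13 values on one with 2 counts in all, and their size depends on the prior count of the fit. Hoxa13 passed the filter on low counts through KO mTEClo alone, so the filter favoured its difference between mTEClo and cTEC. Each library pool enters both effects of a difference within its genotype. No library was tested as an outlier within its group of 3.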

How the results depend on the processing

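Of 125 calls of a Hox gene in a contrast, 80 were kept in every alternative that gave a value and 0 reversed, and for KO against WT 13 of 29 were kept. A fit of only the groups compared gave 0 higher in mTEChi, 1 higher in mTEClo and 4 lower in cTEC for KO against WT, 4 lower for WT mTEChi against WT mTEClo, 0 lower for WT mTEClo against WT cTEC, 5 higher for KO mTEChi against KO mTEClo, 6 higher for KO mTEChi against KO cTEC, 3 higher for KO mTEClo against KO cTEC and 0 lower for the difference of KO effects between mTEChi and cTEC. In that fit the filter left 9 to 23 Hox genes to test, in place of 24. For KO against WT it kept every call that it still tested (7 in cTEC, 5 in mTEClo and 4 in mTEChi). DESeq2 gave 0 higher in KO against WT mTEChi, and its adjusted p was NA in 17 of 288 Hox values. Leaving out 1 library gave 0 to 1 higher and 3 to 6 lower in mTEChi, 4 to 6 lower in mTEClo, and 2 to 3 higher and 8 to 11 lower in cTEC for KO against WT. It gave 0 to 1 higher and 0 to 1 lower for WT mTEClo against WT cTEC, 6 to 9 higher for KO mTEChi against KO mTEClo, and 3 to 5 lower for KO mTEClo against KO cTEC. Differences of KO effects then numbered 0 to 2 higher between mTEChi and mTEClo, 2 to 5 higher and 0 to 2 lower between mTEChi and cTEC, and 2 to 4 higher between mTEClo and cTEC. With 1 read as the limit of detection 25.4 Hox genes were found in KO mTEChi, 14.6 in KO mTEClo, 10.2 in KO cTEC, 29.3 in WT mTEChi, 20.5 in WT mTEClo and 19.3 in WT cTEC. With 10 reads these were 1.57 in KO mTEChi, 2.93 in KO mTEClo, 3.83 in KO cTEC, 8.87 in WT mTEChi, 4.37 in WT mTEClo and 5.13 in WT cTEC, so that KO mTEChi, the highest KO group at 1 and 5 reads, was the lowest at 10. With pools of mice as a replicate block, 7 were higher in KO mTEChi than in KO mTEClo and 14 in KO mTEChi than in KO cTEC, and beyond the 6 lost calls named in the text it ended no other call of a Hox gene that was made without it. Scaling by library totals alone shifted the median of all genes in KO against WT cTEC by -0.12. Most Hox genes had few reads, and a gene that was not called may differ below what this depth shows.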
